A study of Mus musculus with 6 samples.

Results

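The genes described here build and maintain the sarcomere, the contractile unit of striated muscle: the scaffold of thin and giant filaments, the Z-disc, the M-band and the proteins that assemble and turn over these parts. There were 47 of them among the 47729 genes listed for each sample, found by their symbols in all 6 tables. They were selected on the high-fat diet (HFD) against low-fat diet (LFD) contrast of these same mice, so the difference between diets is given below as a description, without a test. By the usual tissue distribution of each gene, 36 were classed as strictly striated and 11 as broadly expressed, the latter being Nebl, Obsl1, Tmod1, Pdlim3, Pdlim5, Pdlim7, Flnc, Des, Cryab, Ankrd1 and Fbxo32.

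RNA sequencing was performed on brown adipose tissue (BAT) of 6 wild-type male C57BL/6J mice. The 3 HFD mice ate a diet with 45% of energy from fat and the 3 LFD mice a standard low-fat rodent diet, in both cases from the age of 6 weeks to 10 weeks. The interscapular pad of the right side was taken, and each diet was represented by its fattest, its leanest and an intermediate animal, but which number in the labels belongs to which of them is not given in the sources used here. Libraries were made from total RNA after removal of ribosomal RNA and held 17156991 to 21603487 estimated reads.

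A sarcomere lies between 2 Z-discs, where alpha-actinin crosslinks the ends of actin filaments, and is held together across its middle by the M-band, where myomesins tie myosin filaments to each other. Titin spans from Z-disc to M-band and carries signalling proteins along its length, nebulin lines the thin filament, and desmin filaments link neighbouring Z-discs to each other and to the cell membrane. Brown adipocytes arise from precursors that share a Myf5-expressing lineage with skeletal muscle, and the interscapular pad lies against muscles of the back. The broadly expressed members also serve actin stress fibres, smooth muscle, epithelia or protein quality control outside muscle.

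Promoter sequence was read for the 250 bases before each transcription start in the RefSeq table for GRCm38.p6, which held 35 of the 47 members in 44 windows. In muscle promoters the CArG box binds serum response factor, the MEF2 site binds the MEF2 factors and the MCAT element CATTCC binds TEAD factors, and all were searched on both strands. The 4 windows shown were chosen because Acta1, Actc1 and Ttn hold these letters close to the start of genes that encode the filaments themselves, whereas Pdlim7, a broadly expressed Z-disc gene, holds none. Matches are in capitals, and each sequence runs 5′ to 3′ on the strand of the gene, ending at the base before the RefSeq start. GENCODE, the source of the gene positions below, puts the starts of Acta1, Actc1 and Pdlim7 elsewhere, at 123894751, 114053548 and 55513676. By that annotation the Actc1 window and most of the Pdlim7 window lie inside the gene.
Acta1 (chr8:123894776-123895025, minus strand): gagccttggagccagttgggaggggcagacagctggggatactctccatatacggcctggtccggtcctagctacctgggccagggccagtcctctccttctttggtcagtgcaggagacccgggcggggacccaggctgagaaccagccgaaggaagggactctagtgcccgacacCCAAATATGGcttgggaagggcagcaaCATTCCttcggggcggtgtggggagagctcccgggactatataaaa
Actc1 (chr2:114052876-114053125, minus strand): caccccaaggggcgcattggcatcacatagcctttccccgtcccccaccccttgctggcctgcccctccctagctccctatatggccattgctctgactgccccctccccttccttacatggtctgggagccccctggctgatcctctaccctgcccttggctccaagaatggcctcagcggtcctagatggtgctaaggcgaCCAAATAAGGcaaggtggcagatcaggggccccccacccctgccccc
Ttn (chr2:76982548-76982797, minus strand): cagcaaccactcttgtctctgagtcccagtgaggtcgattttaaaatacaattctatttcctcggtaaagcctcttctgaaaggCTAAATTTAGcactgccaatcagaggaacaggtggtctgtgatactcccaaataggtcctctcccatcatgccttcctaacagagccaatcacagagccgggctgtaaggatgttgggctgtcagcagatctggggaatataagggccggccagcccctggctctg
Pdlim7 (chr13:55513447-55513696, minus strand): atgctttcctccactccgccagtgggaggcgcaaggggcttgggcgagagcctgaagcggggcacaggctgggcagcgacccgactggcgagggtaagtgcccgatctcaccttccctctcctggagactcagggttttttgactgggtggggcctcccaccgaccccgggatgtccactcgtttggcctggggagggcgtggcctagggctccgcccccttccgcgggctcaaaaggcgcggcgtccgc

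In the Acta1 window the CArG letters CCAAATATGG lay from base -73 to -64 and the MCAT letters from -46 to -41, counted back from the start. Actc1 held CCAAATAAGG from -47 to -38. Ttn held the MEF2 letters CTAAATTTAG from -166 to -157. A MEF2 match was found in 7 of the 30 windows of strictly striated members (23.3%), in 0 of the 14 windows of broadly expressed members and in 2.92% of all 32851 windows of the table. For the CArG box the numbers were 5 of 30 (16.7%), 1 of 14 (7.14%) and 1.47%, and for the MCAT element 6 of 30 (20.0%), 5 of 14 (35.7%) and 12.6%. The E-box CANNTG, which myogenic factors can bind, was in 25 of 30 striated windows (83.3%), in 7 of 14 broad windows and in 66.2% of all windows. Several members have more than 1 start and their windows can overlap, so these are counts of letters and not of bound sites.

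The strictly striated members were low in the BAT of HFD mice and high in that of LFD mice. Their summed level, in TPM (transcripts scaled to a common total in each library and corrected for length), was 27.4, 98.6 and 15.7 in HFD mice 1, 2 and 3, and 1731, 4880 and 937 in LFD mice 1, 2 and 3. The groups did not overlap: the lowest LFD sum was 9.5 times the highest HFD sum. The 11 broadly expressed members summed to 73.1, 116 and 117 TPM in HFD mice and to 295, 806 and 379 TPM in LFD mice, which left a ratio of 2.52 between the lowest LFD and the highest HFD value. In whole tissue, fewer cells of a type and less RNA per cell cannot be told apart.

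Of the 36 strictly striated members, 34 passed the count filter, and all 34 were lower in every HFD mouse than in any LFD mouse on the log2 CPM scale (counts scaled to a common library size). Some passed only through the LFD mice: Klhl40 had 2, 5 and 0 counts in HFD mice and 101, 435 and 98 in LFD mice. The 2 that did not pass, Myoz3 and Mybpc3, overlapped on this scale, so the count of 34 is not independent of the filter. No member was higher in every HFD mouse. Over all 17668 genes that passed, 9.23% were lower and 6.72% higher in every HFD mouse, and the rule that chose the members used this same contrast, so nothing is read from the comparison. The fitted log2 fold changes of the 34 (HFD minus LFD) had a median of -5.47 and ran from -7.45 to -2.26, beside a median of -0.05 over all genes. Of the broadly expressed members all 11 passed, 4 were lower in every HFD mouse, and their median was -2.21 with a range from -5.06 to 0.25. Without LFD mouse 2 the medians were -4.46 and -1.17. Without the members whose class was borderline they were -5.475 and -0.69, so the broad median depends on how those members were classed.

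**Figure D1:**
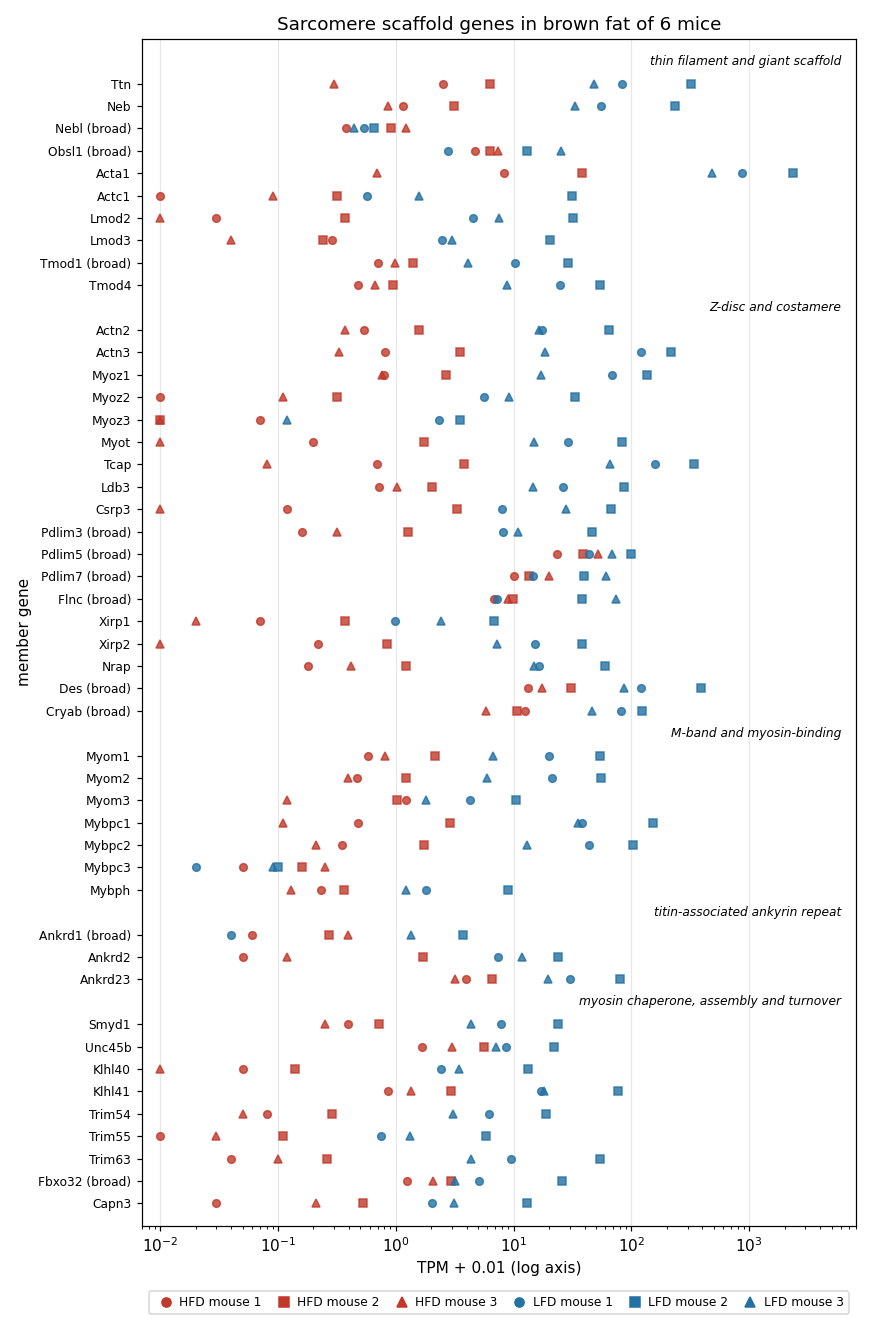
Level of each of the 47 members in each mouse, as TPM + 0.01 on a log axis, grouped by role. Red symbols are the 3 HFD mice and blue symbols the 3 LFD mice, with circle, square and triangle for mice 1, 2 and 3; most striated members show red and blue apart, while Pdlim5, Obsl1, Nebl, Mybpc3 and Ankrd1 are among those that show them mixed.

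Among the thin-filament and giant scaffold genes, skeletal actin Acta1 (ENSMUSG00000031972, chr8:123891769-123894751) had the highest level. It measured 8.30, 37.9 and 0.68 TPM in the HFD mice and 872, 2336 and 486 TPM in the LFD mice. The groups were far apart, with LFD mouse 2 highest, and Acta1 ranked 92, 31 and 226 among all genes in the LFD mice but 6998, 2995 and 16981 in the HFD mice. Its fitted log2 fold change was -6.15 ± 1.49 (SE, n = 3 per diet). Acta1 made up 36.9% to 43.0% of the members' summed TPM in LFD mice, against 0.51% to 17.6% in HFD mice.

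Titin itself (Ttn, chr2:76703980-76982547) stood at 2.51, 6.33 and 0.29 TPM in HFD mice and at 82.8, 323 and 47.8 TPM in LFD mice. The thin-filament ruler nebulin (Neb, chr2:52136647-52378474) stood at 1.13, 3.08 and 0.85 TPM against 55.0, 235 and 33.1 TPM. Both were lower in every HFD mouse, with log2 fold changes of -5.60 ± 1.51 for Ttn and -5.79 ± 1.21 for Neb. Cardiac actin Actc1 was scarce outside LFD mouse 2, at 0, 0.31 and 0.08 TPM in HFD mice and at 0.56, 31.2 and 1.56 TPM in LFD mice. The leiomodins, which nucleate actin filaments, and the pointed-end cap Tmod4 showed the same order of diets, with log2 fold changes of -6.60 for Lmod2, -5.08 for Lmod3 and -5.47 for Tmod4.

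Among the broadly expressed relatives in this role, Nebl and Obsl1 overlapped between diets and Tmod1 did not. Nebulette (Nebl), the small relative of nebulin, measured 0.37, 0.90 and 1.21 TPM in HFD mice and 0.53, 0.64 and 0.43 TPM in LFD mice. These ranges overlapped, and its log2 fold change was 0.25 ± 0.54. Obscurin-like 1 (Obsl1), which also has a cytoskeletal role outside muscle, measured 4.67, 6.30 and 7.42 TPM against 2.74, 12.9 and 25.1 TPM, so that LFD mouse 1 lay below every HFD mouse. The tropomodulin Tmod1, an actin cap also of red cells and epithelia, did not overlap, with 0.69, 1.39 and 0.97 TPM against 10.3, 29.0 and 4.09 TPM and a log2 fold change of -3.28 ± 0.75.

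At the Z-disc, the intermediate filament protein desmin (Des, ENSMUSG00000026208, chr1:75360329-75368579) measured 13.4, 30.6 and 17.5 TPM in HFD mice. In LFD mice Des measured 121, 389 and 85.8 TPM. The diets did not overlap, although Des is classed as broadly expressed because smooth muscle makes it as well, and its log2 fold change was -3.37 ± 0.62. Telethonin (Tcap, chr11:98383811-98384953), the cap that joins the ends of titin in the Z-disc, measured 0.68, 3.79 and 0.07 TPM in HFD mice and 158, 340 and 66.2 TPM in LFD mice. Its log2 fold change of -6.86 (SE 1.3) was the second lowest of the 45 in the count fit, and its counts were 13, 53 and 1 in HFD mice against 2454, 4134 and 691 in LFD mice.

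The fast-fibre alpha-actinin Actn3 (chr19:4861216-4877909) measured 0.80, 3.51 and 0.32 TPM in HFD mice and 120, 215 and 18.6 TPM in LFD mice. Actn2, the alpha-actinin of heart and all skeletal fibres, measured 0.53, 1.56 and 0.36 TPM against 17.3, 64.7 and 16.6 TPM. Both separated the diets. The calsarcins Myoz1 and Myoz2, which anchor calcineurin at the Z-disc, had log2 fold changes of -5.63 and -5.94, myotilin (Myot) of -5.96, and the LIM-domain proteins Ldb3 and Csrp3 of -4.68 and -4.79. Xirp1, Xirp2 and Nrap, which bind actin at the ends and the assembly sites of myofibrils, had -4.32, -5.69 and -5.47. Myoz3 did not pass the filter, with 1, 0 and 0 counts in HFD mice and 33, 39 and 1 in LFD mice.

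The PDZ and LIM protein family split within the Z-disc. Pdlim3, which binds alpha-actinin in muscle, measured 0.15, 1.25 and 0.31 TPM in HFD mice and 8.16, 46.3 and 10.8 TPM in LFD mice, with no overlap and a log2 fold change of -5.06 ± 0.93. Pdlim5 measured 23.2, 38.7 and 52.4 TPM against 44.0, 98.9 and 67.8 TPM, and Pdlim7, which is also found in bone and fibroblasts, measured 10.1, 13.5 and 19.9 TPM against 14.5, 39.7 and 60.8 TPM. In both genes LFD mouse 1 lay inside the HFD range, and the log2 fold changes were -0.26 ± 0.24 and -0.67 ± 0.42. Filamin C (Flnc), the muscle-rich actin crosslinker, measured 6.81, 9.94 and 9.02 TPM against 7.17, 38.0 and 73.7 TPM, again with LFD mouse 1 inside the HFD range. The small heat shock protein Cryab, a chaperone of desmin, was apart, with 12.5, 10.6 and 5.86 TPM in HFD mice and 81.4, 123 and 46.5 TPM in LFD mice.

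**Figure D2:**
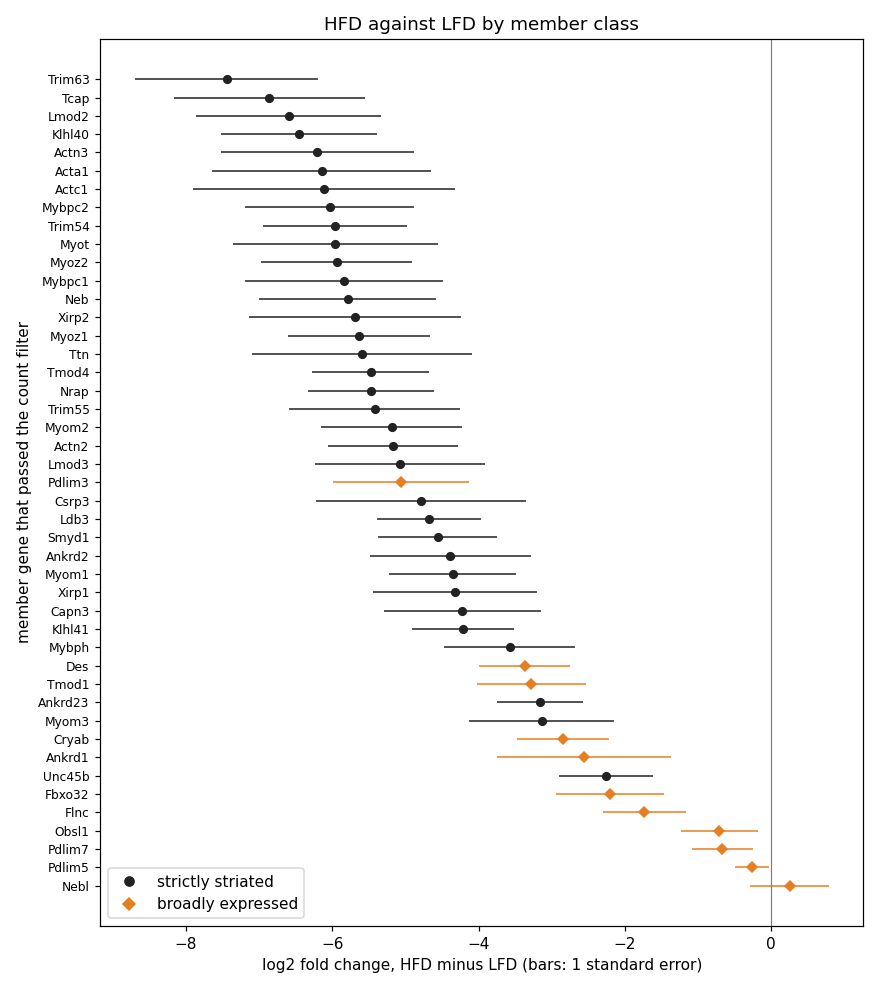
Fitted log2 fold change (HFD minus LFD) of the 45 members that passed the count filter, with bars of 1 standard error (n = 3 mice per diet). Black circles are strictly striated members, from -7.45 for Trim63 to -2.26 for Unc45b, and orange diamonds are broadly expressed members, from -5.06 for Pdlim3 to 0.25 for Nebl.

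M-band and myosin-binding genes followed the striated pattern. Myosin-binding protein C of slow type, Mybpc1, was highest among them and measured 0.47, 2.87 and 0.10 TPM in HFD mice and 38.3, 151 and 35.3 TPM in LFD mice. The fast type, Mybpc2, measured 0.34, 1.71 and 0.20 TPM against 43.8, 104 and 13.1 TPM. Both were lower in every HFD mouse, with log2 fold changes of -5.84 ± 1.35 and -6.04 ± 1.15. Myomesin-2 (Myom2) measured 0.46, 1.22 and 0.38 TPM against 21.2, 55.2 and 5.89 TPM, and the log2 fold changes of the 3 myomesins were -4.35 for Myom1, -5.19 for Myom2 and -3.14 for Myom3. Cardiac Mybpc3 was the strictly striated member that did not lean to LFD: it had 4, 10 and 17 counts in HFD mice and 1, 5 and 4 in LFD mice, and did not pass the filter. The value of Mybph is uncertain, since the posterior SD of its count, which RSEM gives for reads that fit several transcripts, reached 67.7% of the count in 1 mouse.

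The ankyrin repeat proteins that bind titin in its elastic region had log2 fold changes from -4.39 to -2.56. Ankrd23 measured 3.93, 6.50 and 3.14 TPM in HFD mice and 29.8, 80.3 and 19.6 TPM in LFD mice, with a log2 fold change of -3.16 ± 0.59. Ankrd2, which is rich in slow fibres, measured 0.04, 1.70 and 0.11 TPM against 7.36, 23.7 and 11.7 TPM. Its log2 fold change was -4.39 (SE 1.1) with all mice and -7.06 without HFD mouse 2. Each was apart between diets. Ankrd1, a gene of heart and of stretched or injured tissue, measured 0.05, 0.26 and 0.38 TPM against 0.03, 3.74 and 1.34 TPM and overlapped because LFD mouse 1 had the lowest value of all 6.

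Among the genes of assembly and turnover, the ubiquitin ligase MuRF1 (Trim63, ENSMUSG00000028834, chr4:134315120-134329629) had the lowest log2 fold change of the members in the count fit, -7.45 ± 1.25. On log2(TPM + 1) its difference was -3.70, above those of Acta1 (-6.88) and Tcap (-6.23). Its counts were 1, 7 and 2 in HFD mice and 301, 1339 and 93 in LFD mice, so the HFD level rests on few reads. The relatives Trim54 and Trim55 had -5.97 and -5.42. Atrogin-1 (Fbxo32), the F-box partner of MuRF1 in muscle wasting but also made elsewhere, measured 1.24, 2.95 and 2.04 TPM in HFD mice and 5.10, 25.5 and 3.19 TPM in LFD mice. In TPM its groups were just apart, but on the log2 CPM scale they overlapped, and its log2 fold change was -2.21 ± 0.74.

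The Kelch proteins Klhl40 and Klhl41, which stabilise nebulin and leiomodin, had log2 fold changes of -6.46 and -4.22, and Klhl41 measured 0.85, 2.96 and 1.34 TPM in HFD mice against 17.1, 76.3 and 18.0 TPM in LFD mice. The methyltransferase Smyd1 and the protease Capn3 had -4.56 and -4.22. The myosin chaperone Unc45b had the smallest difference of the fitted striated members. It measured 1.67, 5.62 and 2.97 TPM against 8.54, 22.2 and 7.03 TPM, so that the lowest LFD mouse was 1.25 times the highest HFD mouse, the narrowest gap among the 35 striated members whose TPM did not overlap.

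What remained of the group in HFD mice was mostly its broadly expressed part. The 11 broad members made up 72.8%, 54.1% and 88.2% of the members' summed TPM in HFD mice 1, 2 and 3, against 14.6%, 14.2% and 28.8% in the LFD mice. Pdlim5, Pdlim7, Flnc and Obsl1 together were 44.6%, 31.8% and 66.8% of the members' sum in HFD mice and 3.37%, 3.33% and 17.3% in LFD mice. Of the 36 striated members, 21, 27 and 16 reached 10 counts in HFD mice 1, 2 and 3, and 35, 35 and 34 did so in the LFD mice. The HFD values of many striated members are therefore counting-limited.

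The mice of a diet also differed among themselves. The members were selected on the same libraries, so these counts are a description and not independent of the selection. LFD mouse 2 was the highest LFD mouse for 36 of 36 striated members, for 8 of 11 broad members and for 32.4% of all genes that passed the filter. HFD mouse 2 was the highest HFD mouse for 32 of 36 striated members, for 5 of 11 broad members and for 42.7% of all genes. LFD mouse 1 was the lowest LFD mouse in TPM for 12 of 36 striated members, for 6 of 11 broad members and for 74.7% of all genes. HFD mouse 1 was the lowest HFD mouse for 80.3% of all genes. The low place of LFD mouse 1 in the overlaps above is therefore not particular to the broad members. Over the 34 striated members with at least 10 counts in each LFD mouse, the log2 ratio of LFD mouse 2 to mouse 1 had a median of 1.78 and ran from 0.84 for Actn3 to 5.80 for Actc1. The log2 ratio of LFD mouse 3 to mouse 1 ran from -2.69 to 1.80, with 11 members higher and 23 lower in mouse 3, so the striated members did not scale by a single factor between LFD mice.

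Ratios between related genes within a mouse show where these differences lay; the pairs were chosen after their values were seen. The ratio of Myoz2, of slow and cardiac fibres, to Myoz1, of fast fibres, was 0.081, 0.243 and 0.533 in LFD mice 1, 2 and 3. For Actn2 to Actn3 it was 0.144, 0.301 and 0.891, and for Mybpc1 to Mybpc2 0.873, 1.46 and 2.70. LFD mouse 3 had the highest ratio in 5 of the 6 member pairs, with Actc1 to Acta1 the exception, and LFD mouse 1 the lowest in 5 of 6, with Myom3 to Myom2 the exception. The myosin and troponin pairs stood in the same order, with Myh7 to Myh4 at 0.003, 0.083 and 0.353 and Tnnt1 to Tnnt3 at 0.0018, 0.079 and 0.144. With 1 library per mouse these differences have no replicate check, and few HFD counts were high enough for the same ratios.

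**Figure D3:**
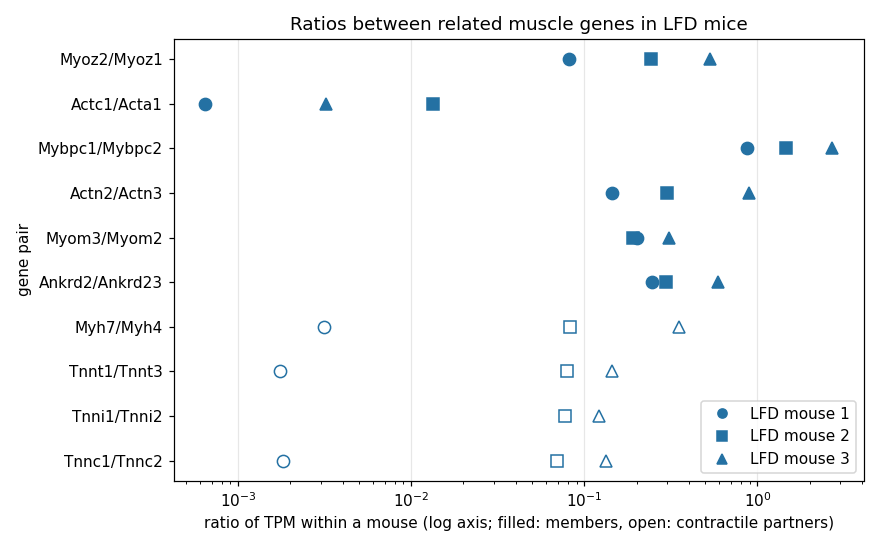
Ratio of the TPM of 2 related muscle genes within each LFD mouse, on a log axis (circle, square and triangle for LFD mice 1, 2 and 3; filled for members, open for contractile partners; both genes at 10 counts or more). LFD mouse 3 has the highest ratio in 5 of the 6 member pairs, the exception being Actc1 to Acta1.

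RSEM also gives each gene a transcript length weighted by the estimated share of each annotated transcript, a readout on which the members were not selected. It could be compared for 19 members that had more than 1 transcript and at least 10 counts in every mouse, 12 striated and 7 broad. In 6 of them the diets did not overlap (31.6%), beside 11.3% of all 10236 such genes. Each of the 6 reached p = 0.1 by the exact 2-sided permutation test, the smallest value that 3 mice against 3 allow. Their adjusted p was 0.317 over the 19 by Benjamini-Hochberg. An adjusted p cannot fall below that smallest value, so with 3 mice per diet no member could pass and the test cannot decide.

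The mean length for Des was 1700.3 ± 12.4 bases in HFD mice and 2095 ± 54.6 bases in LFD mice (SD, n = 3 each). Des has a coding transcript of 3028 bases and retained-intron transcripts of 835 and 784 bases in the annotation, and the HFD mean lay nearer to the short ones. Ankrd23 was likewise shorter in HFD mice, at 1487, 1585 and 1563 bases against 1665, 1679 and 1851 bases. The broadly expressed Pdlim5, Pdlim7 and Tmod1 went the other way: Pdlim5 measured 3089, 2807 and 2776 bases in HFD mice and 2056, 2113 and 2489 bases in LFD mice. Pdlim7 measured 1657, 1444 and 1625 bases against 1058, 1088 and 1414 bases, and Tmod1 2257, 2665 and 2841 bases against 1886, 2099 and 2005 bases. Myom1 differed by little, with 5446 to 5602 bases against 5341 to 5423 bases. The counts of Tmod1 and Ankrd23 carry a posterior SD of up to 21.0% and 13.3% in a mouse, so their transcript shares are less certain.

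**Figure D4:**
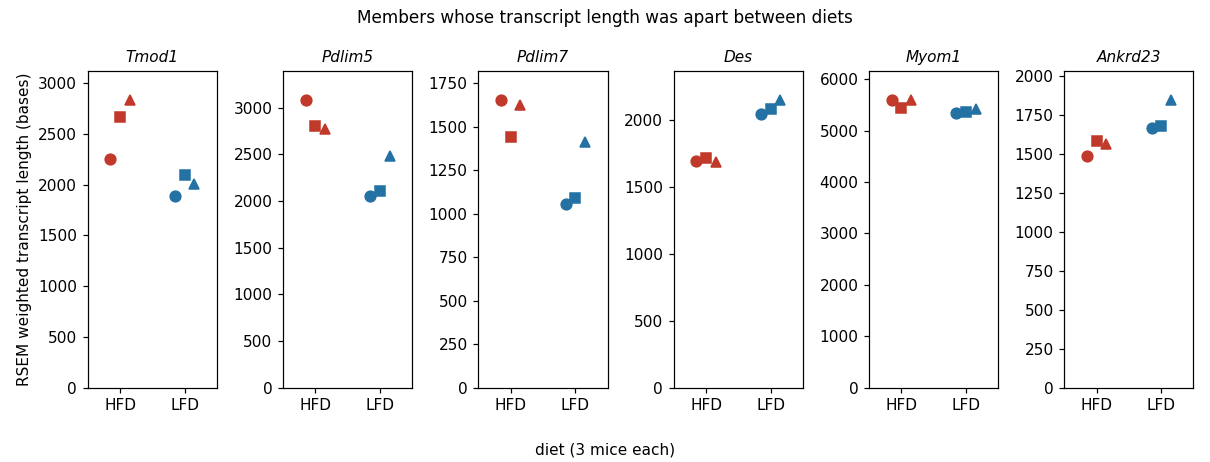
RSEM weighted transcript length in bases, with the axis from 0, for the 6 members whose HFD (red) and LFD (blue) mice did not overlap; circle, square and triangle are mice 1, 2 and 3. Des and Ankrd23 were shorter in HFD mice, and Tmod1, Pdlim5, Pdlim7 and Myom1 were longer.

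Contractile partners of the scaffold, the myosin chains, troponins and tropomyosins, mostly moved with the striated members. On the log2 CPM scale 15 of the 17 were lower in every HFD mouse, beside 9.23% of all genes that passed the filter, while Tnnt1 and Tpm3 overlapped. In TPM, for which no share over all genes was computed, 13 were lower in every HFD mouse. The other 4 overlapped in TPM, namely Tnnc1, Tnni1, Tnnt1 and Tpm3, with Tnni1 on few reads. In each of these LFD mouse 1 lay below the highest HFD mouse. Tnnt1 measured 1.03, 1.33 and 2.99 TPM in HFD mice and 1.69, 163 and 40.1 TPM in LFD mice. Of 17 partner genes 16 passed the filter and 15 of them had a negative log2 fold change, with a median of -5.87. Fast troponin T (Tnnt3) measured 6.63, 35.2 and 0.31 TPM in HFD mice and 965, 2052 and 279 TPM in LFD mice, and the fast regulatory light chain Mylpf 6.89, 23.0 and 3.06 TPM against 823, 1784 and 279 TPM. By edgeR's quasi-likelihood test with Benjamini-Hochberg adjustment, 0 of the 16 passed an adjusted p of 0.01 and a log2 change of 1.5, as did 0.0% of all genes, with adjusted p from 0.17 to 0.882; 15 of the 16, all lower in HFD mice, were under an unadjusted p of 0.05, beside 6.62% of all genes lower and 3.86% higher at that limit. The partner list was chosen with earlier results of these data known. These counts and the DESeq2 calls below are therefore a description, and nothing is read from setting them beside all genes. Some partners passed the count filter only through the LFD mice. Myl2 had 1, 8 and 0 counts in HFD mice and 15, 1317 and 340 in LFD mice, and Myl3 had 5, 4 and 3 against 34, 521 and 139. By DESeq2, 15 of the 17 were called lower, beside 1.53% of 19965 genes called lower and 0.531% called higher.

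Calcium and energy genes of the muscle fibre were lower in every HFD mouse for 7 of 8, beside 9.23% of all genes on the log2 CPM scale. This list too was chosen with earlier results of these data known. Ckm measured 3.58, 26.3 and 0.06 TPM against 853, 1767 and 243 TPM, while myoglobin (Mb) overlapped. Per 1000 TPM of contractile partners, the striated members summed to 89.4, 186 and 26.5 TPM in HFD mice and to 380, 402 and 364 TPM in LFD mice. The broad members summed to 239, 219 and 197 TPM against 64.9, 66.5 and 148 TPM on the same scale. The partner sum in HFD mice is mainly Tpm3, Tpm1, Tpm2 and Myl1, and the tropomyosins are also made outside muscle.

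Markers of other cell types were measured beside these genes. Of the 8 cardiomyocyte genes, Myh6, Nppa, Nppb and Myl7 were at or near 0 in all mice, the highest value being 0.47 TPM, and they are named as the genes most particular to heart. The 3 highest of the list were not at 0: Myl4 measured 3.00, 1.04 and 0.72 TPM in HFD mice and 5.71, 47.8 and 5.49 TPM in LFD mice, without overlap. Cardiac troponin T (Tnnt2) reached 12.5 TPM in LFD mouse 2 and at most 1.17 TPM elsewhere, and Tnni3 measured 0.29 to 1.08 TPM against 0.49 to 3.42 TPM. The remaining gene of the list, Ryr2, went the other way, at 0.62 to 1.13 TPM in HFD mice against 0.03 to 0.04 TPM in LFD mice. The whole list summed to 2.71 to 4.48 TPM in HFD mice and to 6.24 to 64.0 TPM in LFD mice. The 7 smooth muscle genes overlapped between diets in 7 of 7 on the log2 CPM scale and summed to 62.2, 104 and 175 TPM in HFD mice and to 54.1, 83.4 and 232 TPM in LFD mice. Its highest genes were Acta2, at 35.4 to 105 TPM against 22.5 to 135 TPM, Tagln, at 16.3 to 44.7 TPM against 16.1 to 35.9 TPM, and Smtn, at 7.11 to 18.9 TPM against 6.76 to 48.9 TPM. The myogenic precursor genes were near 0 in HFD mice, and Myog reached 7.43 TPM and Myod1 4.24 TPM in LFD mouse 2 but at most 0.65 and 0.28 TPM in the other LFD mice.

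The 12 brown adipocyte genes overlapped between diets in 10 of 12 and summed to 5732 to 12175 TPM in HFD mice and to 3521 to 12265 TPM in LFD mice. Fabp4 was the largest part of this sum in every mouse, so its overlap does not show that the single genes were alike. The other 2 genes, Ucp1 and Prdm16, were higher in every HFD mouse. The log2 fold change was positive for 8 genes, highest for Ucp1 (3.67), Cidea (2.19) and Cox7a1 (2.18). It was negative for 4, among them Adipoq (-1.19) and Plin1 (-0.78), and 0 of the 12 were called. Ucp1, the uncoupling protein that defines brown fat, measured 2728, 4021 and 796 TPM in HFD mice and 443, 11.03 and 76.0 TPM in LFD mice. It was lowest in LFD mouse 2, the mouse with the highest sarcomere levels, where the general adipocyte gene Adipoq measured 2015 TPM. The other brown adipocyte genes did not all share this order. LFD mouse 3, with the lowest striated sum of the LFD mice, was the lowest LFD mouse for 7 of the 12 genes, and LFD mouse 2 for 4. Cox7a1 measured 297, 125 and 45.9 TPM in LFD mice 1, 2 and 3. The LFD means and fold changes given here include LFD mouse 2 unless it is said to be left out. Among the LFD mice, mouse 2 had the lowest Ucp1 and the highest striated sum. Without it the median log2 fold change of the striated members was -4.46, against -5.47 with all mice. The number of striated members lower in every HFD mouse stayed at 34. Leaving a mouse out can hardly lower that number, so it is no check on the part of this mouse. The 10 macrophage genes overlapped in 9 of 10 in TPM and in 6 of 10 on the log2 CPM scale, where 3 were higher and 1 lower in every HFD mouse, and summed to 1968 to 3989 TPM in HFD mice and to 652 to 4567 TPM in LFD mice. The highest of them, Lyz2, measured 1115 to 2264 TPM against 252 to 2755 TPM, and C1qb and C1qa overlapped as well. The share of counts from the mitochondrial genome was 22.7%, 16.5% and 8.5% in HFD mice and 13.8%, 9.12% and 3.87% in LFD mice. The part of fibre content, cell makeup or RNA composition in the sarcomere differences was not tested.

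**Figure D5:**
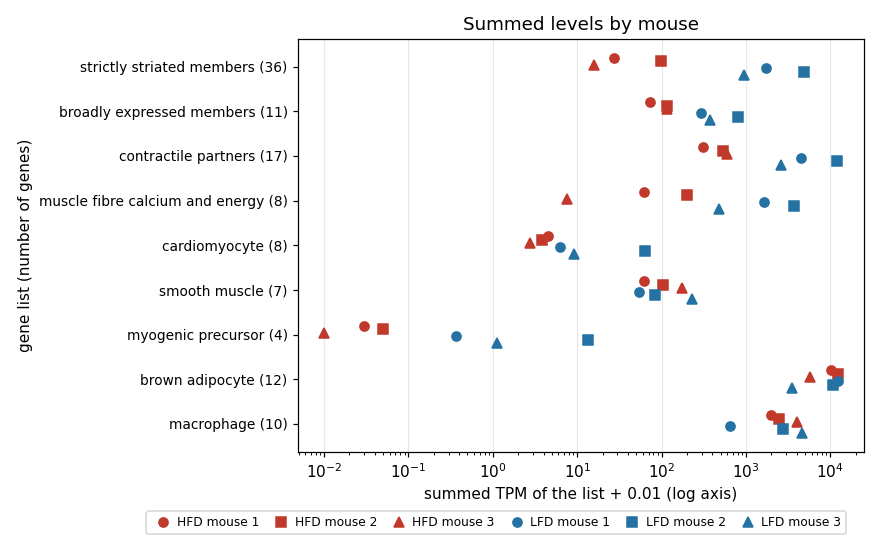
Summed TPM + 0.01 of each gene list in each mouse, on a log axis, with the number of genes in brackets (red HFD, blue LFD; circle, square and triangle for mice 1, 2 and 3). Striated members, contractile partners and the muscle calcium and energy genes are apart between diets, while smooth muscle, brown adipocyte and macrophage sums overlap. Within the brown adipocyte list, Ucp1 and Prdm16 were higher in every HFD mouse.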

How the data were processed

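RNA sequencing libraries (single-end, ribosomal RNA removed) came from 3 HFD and 3 LFD mice. The authors trimmed reads with Trimmomatic 0.36 and deposited, per gene, RSEM 1.3.0 expected counts, TPM, the weighted transcript length and the posterior SD of the count, on GRCm38.p4; whether strand was used is not given in the sources used here. The members and gene lists were chosen with earlier results of these data known. Expected counts were rounded, and 17668 genes passing filterByExpr were scaled by TMM and fitted with edgeR 4.0.16 (quasi-likelihood, diet as the term; R 4.3.3) with Benjamini-Hochberg adjustment over all genes; a call needed an adjusted p under 0.01 and a log2 fold change beyond 1.5. Standard errors are the fold change over the square root of F. DESeq2 1.42.0 was an alternative. Log2 CPM used a prior count of 2. The fit was run on simulated data with large planted changes and less spread between libraries than here, where the common dispersion (a measure of that spread) was 0.201. That run therefore does not show how well the fit finds changes in these mice. Named genes were the 3 highest by mean TPM in each role and list, and all broad members; the other genes named were chosen as further members, as the most particular markers of a list, or after their values were seen. Gene positions are from GENCODE M21. The labels number the mice 1 to 3 in both diets without giving a pairing; deviations from the diet means correlated at 0.498, 0.229 and 0.522 within equal numbers, so a paired alternative was also fitted. Libraries of the same diet differed far beyond counting noise, so no 2 within a diet were duplicates. Libraries of different diets were not compared in this way. Intervals and SDs over 3 mice measure the spread between these animals.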

Additional observations from a re-analysis of the deposited data

How the results depend on the processing

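The medians kept their sign under every alternative, and the 34 striated members lower in every HFD mouse became 35 when HFD mouse 1 or LFD mouse 3 was left out. With the borderline members left out the number was 33. The median log2 fold change of the broad members moved from -2.21 to -1.74 with at least 10 counts in every mouse, -1.72 with the replicate block, -1.17 without LFD mouse 2, -2.68 without LFD mouse 3, -0.69 without the 6 borderline members, -1.55 on log2(TPM + 1) and -1.67 on log2(TPM + 0.1). The striated median was -3.54 on log2(TPM + 1), where the difference between the classes fell to -1.99; it was -4.79 without borderline members. Leaving out single mice gave -6.67 to -4.46 for striated members, -2.68 to -1.17 for broad members and -4.26 to -3.01 for their difference. It left 34 to 35 striated members apart, a count that leaving a mouse out can hardly lower. The replicate block changed no call: 0 genes lower, 0 higher and 0 contractile partners, as did each mouse left out, RLE factors, TMM without the muscle lists, other filters and an adjusted p under 0.05. DESeq2 called 306 genes lower, 106 higher and 15 partners lower; with edgeR 1169 genes were lower and 682 higher at an unadjusted p under 0.05. The cause of these differences was not tested. Members with transcript lengths apart numbered 6 to 10 with a mouse left out, 10 being without HFD mouse 2, and 6 when paired. With a mouse left out the diets come apart more easily in any gene. No share over all genes is given beside these counts, so a higher count is not a stronger result. Of 354 recomputed values of named members 0 changed sign and 6 moved by more than the spread between mice: Ankrd2 to -7.06 without HFD mouse 2, Trim63 to -3.70, Pdlim3 to -3.52 and Myom2 to -3.64 on log2(TPM + 1), and Pdlim5 to -0.86 and -0.88 on log2(TPM + 1) and log2(TPM + 0.1). Many striated members had under 10 counts in HFD mice, which limits the precision of their fold changes.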

Other observations

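Chosen after their values were seen, some muscle-related genes outside the scaffold did not follow it. Ryr2, from the cardiomyocyte list, encodes the calcium release channel of heart that other tissues also make. It measured 1.13, 1.09 and 0.62 TPM in HFD mice and 0.04, 0.04 and 0.03 TPM in LFD mice. It was higher in every HFD mouse, with a log2 fold change of 4.94 ± 0.59 and an adjusted p of 0.17 by edgeR's quasi-likelihood test, so it did not pass the threshold. Myoglobin (Mb), the oxygen store of oxidative fibres that brown fat can also make, measured 50.2, 152 and 6.20 TPM in HFD mice and 95.0, 326 and 63.9 TPM in LFD mice, and the diets overlapped (log2 fold change -0.98 ± 1.06, adjusted p = 0.845 by edgeR). Non-muscle tropomyosin Tpm3 measured 149, 213 and 388 TPM against 84.8, 323 and 471 TPM, with overlap as well.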
